A study of Arabidopsis thaliana with 6 samples.

Results

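SWEET proteins are membrane carriers that let sugars move down their concentration gradient across the plasma membrane or the tonoplast, the membrane of the vacuole. The 10 genes described here are the *Arabidopsis* members of clades I, II and IV, chosen by their loci. Clade I holds SWEET1 (AT1G21460), SWEET2 (AT3G14770) and SWEET3 (AT5G53190). Clade II holds SWEET4 (AT3G28007), SWEET5 (AT5G62850), SWEET6 (AT1G66770), SWEET7 (AT4G10850) and SWEET8 (AT5G40260), and clade IV holds SWEET16 (AT3G16690) and SWEET17 (AT4G15920). Each of the 10 listed loci had a probe set annotated to it alone, and none had more than 1, so all 10 were measured. The annotation used here covers 14016 of the 22746 probe sets, 61.6%, and gave a single-gene probe set to 13286 genes. Members of clades I and II carry mainly hexoses such as glucose, whereas the clade IV members SWEET16 and SWEET17 sit in the tonoplast and move glucose and fructose between vacuole and cytosol. Roots import their sugar from the shoot, and the vacuoles of root cells are a known site of its short-term storage.

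Total RNA came from roots of Col seedlings grown for 7 d on vertical MS agar plates, either wild type or carrying the *spy-3* mutation, with 3 arrays for each genotype. SPINDLY (SPY) is a glycosyltransferase of nuclear and cytosolic proteins and is best known as a repressor of gibberellin signaling, and *spy-3* was the only mutant allele on the arrays. The study used the comparison to find genes that depend on SPY in the root. Each transcript was read by a probe set of the Affymetrix ATH1 array, a group of short oligonucleotides whose brightness the authors combined into 1 linear MAS5 signal. The replicates are described as biological, and the p-values of the fits rest on the spread between the 3 arrays within each genotype. In the limma fits the variance of each probe set was also drawn toward that of probe sets of like brightness. In whole roots, fewer cells of a type and less RNA per cell cannot be told apart.

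The arrays were alike in brightness, with median signals of 85.4 to 87.2. The SPY probe set read 267.4 ± 21.8 in wild type against 285.3 ± 36.7 in the mutant (SD, n = 3 each; limma, adjusted p = 0.728), so the SPY transcript did not serve as a check of the genotype labels. Both measured root hair markers were bright in wild type, the expansin genes EXPA7 (941.1 ± 26.6, SD, n = 3) and EXPA18 (1186 ± 23.7, SD, n = 3). Of the green tissue markers, SBPASE and PRK were dim in wild type at 23.4 ± 10.3 and 6.60 ± 1.85 (SD, n = 3), while RCA, the gene of Rubisco activase, was bright at 429.3 ± 9.25 (SD, n = 3). The listed markers of phloem, xylem, endodermis and root cap were not in this incomplete annotation, those of pollen only on probe sets of several genes, and none of them was used here.

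The SWEET genes fell into a bright and a dim part. SWEET16, SWEET17, SWEET3 and SWEET2 had mean signals above the median probe set, and the other 6 lay below it. In wild type, SWEET16 had the highest mean signal of the 10, 461.0 ± 74.2 (SD, n = 3), brighter than 83.1% of all probe sets. SWEET17 followed with 389.6 ± 48.6 (SD, n = 3) at the 80.3 percentile, and the values of these neighbours in the order overlapped. SWEET3 came next with 198.7 ± 0.961 (SD, n = 3) and then SWEET2 with 154.4 ± 10.1 (SD, n = 3), each separated from the next gene above it by a gap between all 3 arrays. SWEET1 was 6.21-fold dimmer than SWEET2 at 24.9 ± 4.54 (SD, n = 3), the 32.8 percentile. Below it, the 5 clade II genes overlapped at every step and had no order among themselves. This is an order of signals, since probe sets differ in how strongly they bind their transcript, and it is no order of transcript amounts.

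**Figure D1:**
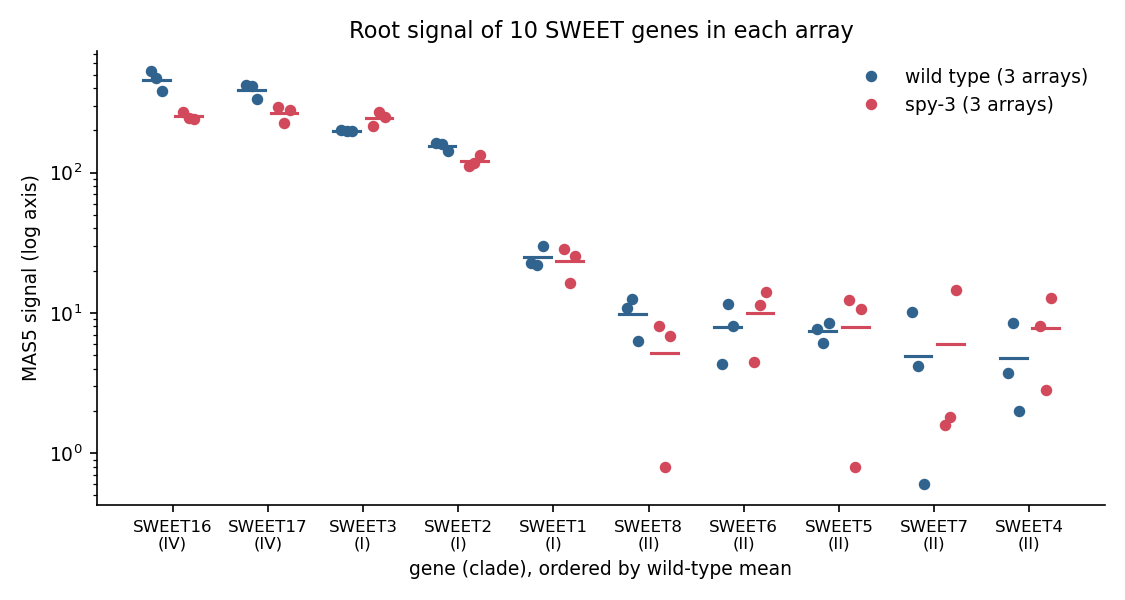
Each point is the MAS5 signal of 1 array on a log axis, and short lines are the means of 3 arrays, with wild type in blue and *spy-3* in red. The bright genes SWEET16, SWEET17, SWEET3 and SWEET2 lie between 111.1 and 526.7, and the clade II genes between 0.6 and 14.5.

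In *spy-3* roots the top of this order was compressed. SWEET17 (265.5 ± 36.5, SD, n = 3), SWEET16 (252.9 ± 16.7, SD, n = 3) and SWEET3 (244.4 ± 28.6, SD, n = 3) had mean signals within 1.05-fold of the next, and their values overlapped. SWEET2 and SWEET1 followed as in wild type, each separated from its neighbours by gaps. Of the 9 steps between neighbours in the order, 4 were free of overlap in wild type and 3 in *spy-3*. SWEET16 moved from the 83.1 to the 72.1 percentile of all probe sets and SWEET17 from 80.3 to 73.2, while SWEET3 moved from 66.9 to 71.3.

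**Figure D2:**
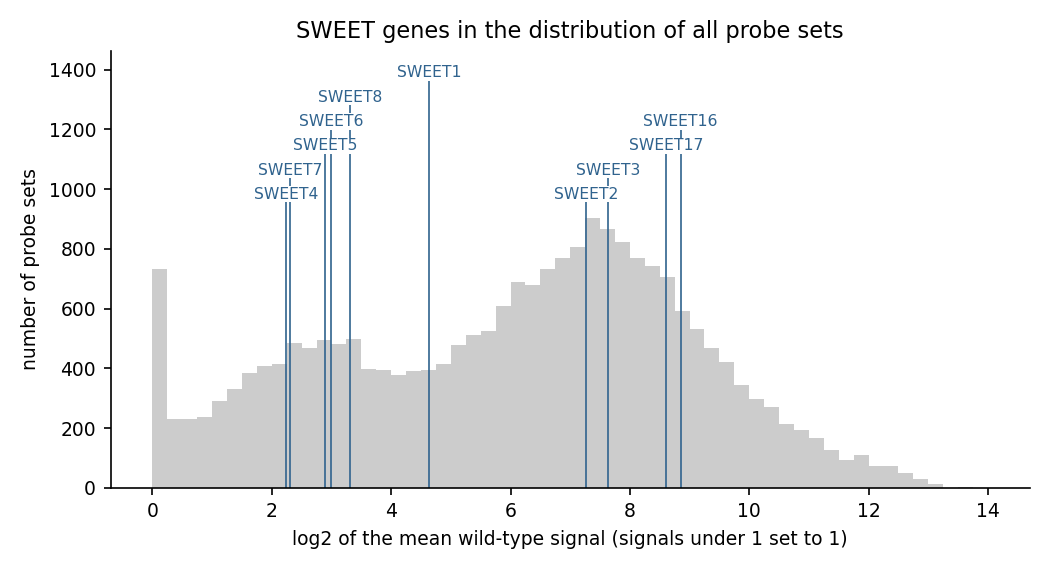
Grey bars count all probe sets by the log2 of their mean wild-type signal, and blue lines mark the 10 SWEET genes. SWEET2, SWEET3, SWEET16 and SWEET17 stand in the upper part of the distribution, between the 61.3 and 83.1 percentiles, and the clade II genes in its low part, between 14.3 and 23.3.

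Of the 10 SWEET genes, 1 fell and none rose in the mutant by limma at a threshold of 0.05 on the adjusted p, against 3.13% of all 22746 probe sets called lower and 2.64% called higher. Among probe sets at or above the median signal, which took in 4 of the 10, the share called in either direction was 9.89%. The gene that fell was SWEET16, a tonoplast carrier of glucose, fructose and sucrose. At an unadjusted p of 0.05, 3 were lower (SWEET16, SWEET17 and SWEET2) and 1 was higher (SWEET3), both by limma and by a one-way analysis of variance. At that threshold limma had 9.34% of all probe sets lower and 9.85% higher, and the analysis of variance 8.36% and 8.69%. Among probe sets at or above the median signal the limma share was 28.0% in either direction. After adjustment the analysis of variance called none of the 10. The median log2 fold change of the 10 was -0.23, against 0.02 for all probe sets. The 3 values of wild type and the 3 values of *spy-3* did not overlap for 4 of the 10, the same 4 bright genes. Without overlap were 24.2% of all probe sets and 32.4% of those at or above the median signal.

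SWEET16 had signals of 526.7, 475.8 and 380.6 in the wild-type arrays and 272.2, 244.1 and 242.5 in *spy-3*. All 3 mutant arrays lay below the lowest wild-type array, and wild type varied more than the mutant. The log2 fold change was -0.86 (standard error 0.12, 95% interval -1.15 to -0.56), or 1.81-fold lower, with an adjusted p of 0.0128 from limma. An exact two-sided permutation test gave p = 0.1, the smallest that 3 arrays against 3 allow. The call was lost without wild type replicate 2, *spy-3* replicate 2 or *spy-3* replicate 3 (adjusted p = 0.0752, 0.0712 and 0.069 from limma), in limma without the mean-variance trend (adjusted p = 0.0555) and by the analysis of variance (adjusted p = 0.0879). The log2 fold change was between -0.99 and -0.72 under all 15 alternatives.

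SWEET17, the tonoplast fructose carrier that is expressed mainly in roots, showed the same direction at a smaller size. Its signals were 421.8, 413.3 and 333.7 in wild type and 293.3, 224.2 and 278.9 in *spy-3*. All mutant values lay below all wild-type values. The log2 fold change was -0.56 (standard error 0.13, 95% interval -0.87 to -0.24), or 1.47-fold lower, and it did not pass after adjustment (adjusted p = 0.0702 from limma). It did pass with the arrays centred on their medians, with an offset of 16 or 64, with robust variances and after the dimmest 40% were dropped (adjusted p from 0.00838 to 0.0389). It did not pass in the other 10 of 15 alternatives. These include all 6 fits that left out 1 array (adjusted p from 0.0655 to 0.223 in limma). They also include limma without the trend (adjusted p = 0.162), the replicate block (adjusted p = 0.128) and the analysis of variance (adjusted p = 0.213).

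Both clade IV genes were more variable between arrays of a genotype than most probe sets of like brightness. The pooled log2 SD within a genotype was 0.18 for SWEET16 and 0.20 for SWEET17, against medians of 0.09 for probe sets within 0.5 log2 units of each, and only 6.83% and 5.11% of those probe sets had a larger SD. The limma standard errors of both genes therefore rest in part on the smaller spread of other probe sets. Wild type replicate 3 was the lowest wild-type array for SWEET16 and for SWEET17. The ratio of SWEET16 to SWEET17 within an array, on the log2 scale, was 0.32, 0.20 and 0.19 in wild type and -0.11, 0.12 and -0.20 in *spy-3*. The mean ratio was thus lower by 0.30 log2 units in the mutant without overlap between the genotypes, and the exact two-sided permutation p was 0.1, the smallest possible. The ratio uses the same values that gave the call of SWEET16, so it is a description and adds no separate evidence.

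**Figure D3:**
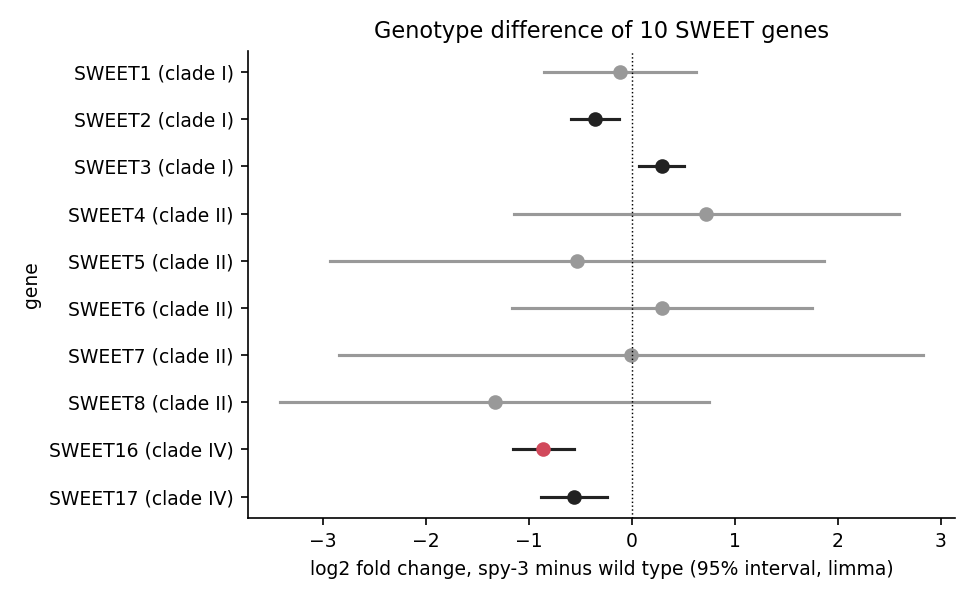
Points are log2 fold changes of *spy-3* minus wild type and lines are their 95% intervals from limma, unadjusted for the number of probe sets. Red marks the adjusted call of SWEET16, black the other genes above the median signal and grey those below it. The interval of SWEET16 runs from -1.15 to -0.56, and those of the clade II genes all include 0.

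The bright genes of clade I differed in opposite directions, though neither passed the adjusted test. SWEET2 is a glucose carrier of the tonoplast in root cells, known for limiting the loss of sugar from the root. Its signals were 161.3, 159.0 and 142.8 in wild type and 111.1, 117.7 and 134.3 in *spy-3*, with every mutant value below every wild-type value. The log2 fold change was -0.35 (standard error 0.10, 95% interval -0.58 to -0.12, adjusted p = 0.101 from limma).

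SWEET3 had signals of 199.7, 198.5 and 197.8 in wild type and 213.4, 269.6 and 250.3 in *spy-3*. The wild-type arrays were nearly equal, and all mutant arrays were above them by unequal amounts. Its log2 fold change was 0.29 (standard error 0.09, 95% interval 0.08 to 0.51, adjusted p = 0.135 from limma), and it passed only without *spy-3* replicate 1 (adjusted p = 0.0323), the mutant array nearest to wild type. Within arrays, the log2 ratio of SWEET3 to SWEET2 was 0.31, 0.32 and 0.47 in wild type and 0.94, 1.20 and 0.90 in *spy-3*. The mean ratio differed by 0.65 log2 units. This pair was chosen for its opposite directions, which fix the separation of the genotypes, so the ratio is a description without a test.

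SWEET1, a clade I glucose carrier of the plasma membrane, had low signals in both genotypes. They were 22.5, 22.0 and 30.1 in wild type and 28.4, 16.3 and 25.5 in *spy-3*, with overlap. The log2 fold change of -0.11 had a 95% interval from -0.85 to 0.62 (adjusted p = 0.892 from limma), which takes in values from 1.80-fold lower to 1.54-fold higher. Its sign turned without *spy-3* replicate 2 or wild type replicate 3.

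**Figure D4:**
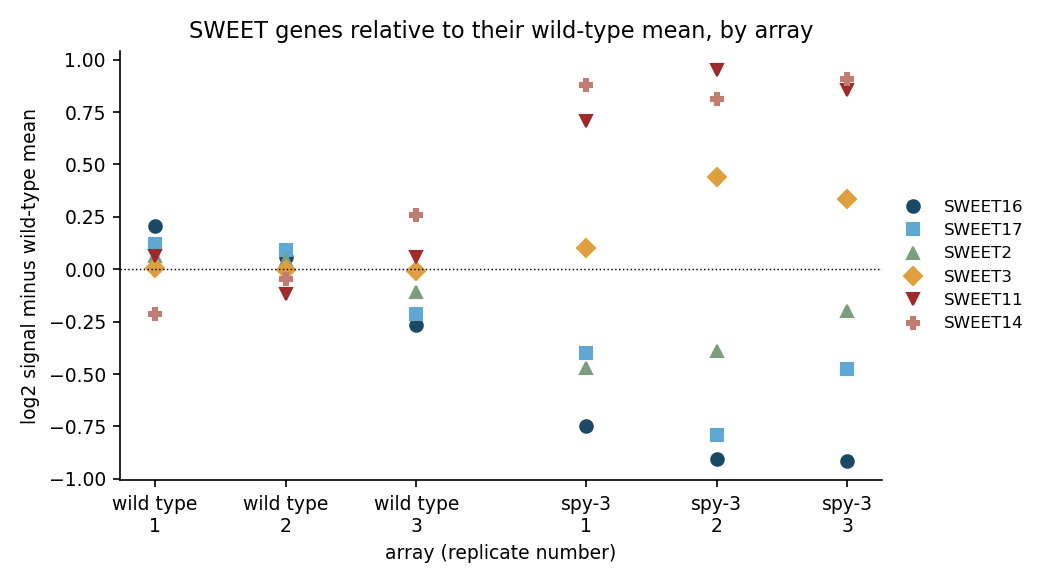
The log2 signal of each array minus the mean of the 3 wild-type arrays of the same gene, for the 4 bright SWEET genes and the sucrose-clade genes SWEET11 and SWEET14. SWEET16, SWEET17 and SWEET2 are below 0 in all 3 *spy-3* arrays, and SWEET3, SWEET11 and SWEET14 are above 0 in all 3.

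The 5 clade II genes were near the bottom of the measured range, with signals of 0.6 to 14.5 and a median of 7.85 over all arrays. None passed the test by limma at an adjusted or unadjusted p of 0.05 (adjusted p from 0.484 to 1.0), and in each the values of both genotypes overlapped. The standard errors of their log2 fold changes were 0.60 to 1.17, against 0.09 to 0.13 for the 4 bright genes. Their 95% intervals reached down to -3.41 in SWEET8 and up to 2.83 in SWEET7.

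SWEET4, a hexose carrier of vascular tissue, had 3.7, 8.5 and 2.0 in wild type and 8.0, 2.8 and 12.7 in *spy-3*. SWEET5, listed as AtVEX1 in the annotation and known from the vegetative cell of pollen, had 7.7, 6.1 and 8.5 in wild type and 12.4, 0.8 and 10.7 in *spy-3*. In both genes *spy-3* replicate 2 was the lowest mutant array. SWEET8, also called RPG1 and needed for the pollen wall, had 10.9, 12.5 and 6.3 in wild type and 8.0, 0.8 and 6.8 in *spy-3*. Its log2 fold change of -1.33 was the furthest from 0 of the 10 genes, with a 95% interval from -3.41 to 0.76, and it was -0.37 without *spy-3* replicate 2. That size therefore came largely from 1 array with a signal under 1. SWEET6 ranged from 4.3 to 11.5 in wild type and from 4.5 to 14.2 in *spy-3*. SWEET7 ranged from 0.6 to 10.1 in wild type and from 1.6 to 14.5 in *spy-3*, and its log2 fold change of -0.01 had a 95% interval from -2.84 to 2.83.

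By clade, the median log2 fold change was -0.11 for the 3 genes of clade I, -0.01 for the 5 of clade II and -0.71 for the 2 of clade IV, against 0.02 over all probe sets. The remaining clade of the family carries sucrose and had 6 measured genes of 7 listed, 4 of them below the median signal. Of these 6 genes, 2 rose and none fell at an adjusted p of 0.05 in limma. Over all probe sets 2.64% were called higher and 3.13% lower. At an unadjusted p of 0.05, limma and the analysis of variance each had 2 of the 6 higher and none lower. Over all probe sets limma then had 9.85% higher and 9.34% lower, and the analysis of variance 8.69% and 8.36%. SWEET11, which passes sucrose out of phloem parenchyma in leaves, had signals of 420.4, 371.1 and 419.2 in wild type and 658.1, 778.0 and 728.7 in the mutant, an increase of 0.84 log2 units (limma, adjusted p = 0.00313). In SWEET14 the increase was 0.87 log2 units (limma, adjusted p = 0.0205), which did not pass by the analysis of variance, with the replicate block (adjusted p = 0.0784 and 0.0606) or in 5 of 6 fits that left out an array. SWEET11 passed under all 15 alternatives (adjusted p up to 0.0393).

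The other sugar genes were taken from lists of transporters and of enzymes that split or phosphorylate sugars. Of 56 listed genes outside the SWEET family, 15 were measured, of which 1 fell, none rose and 14 did not pass, with a median log2 fold change of -0.10. Over all probe sets 3.13% were called lower and 2.64% higher, and the median was 0.02. The gene that fell was AT1G62660, an acid invertase of the vacuole, which splits sucrose into glucose and fructose. Its signals were 4117, 4364 and 4238 in wild type and 3622, 3743 and 3422 in the mutant, without overlap. The difference was -0.24 log2 units with a standard error of 0.05 (limma, adjusted p = 0.0443). That call was lost in all 6 fits that left out 1 array (adjusted p from 0.0745 to 0.165) and with median centring (adjusted p = 0.0533). It was also lost in limma without the trend (adjusted p = 0.146), with the replicate block (adjusted p = 0.0994) and by the analysis of variance (adjusted p = 0.103). TST1, listed as TMT1 and known for loading glucose and other sugars into the vacuole, lay just outside the threshold. It had 1343 ± 15.3 in wild type against 1167 ± 57.6 in the mutant (SD, n = 3 each), a difference of -0.20 log2 units (limma, adjusted p = 0.0507), and it passed in 7 of 15 alternatives.

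None of the 4 measured tonoplast monosaccharide transporters passed the adjusted test in either direction. By limma and by the analysis of variance, 1 was lower at an unadjusted p of 0.05, against 9.34% and 8.36% of all probe sets. VGT2, a vacuolar glucose transporter, differed by 0.14 log2 units (limma, adjusted p = 0.307). The 4 measured plasma membrane hexose transporters of the STP family all lay below the median signal and none was called, also at an unadjusted p by either test. The brightest in that list were STP8, with 16.9 ± 3.65 (SD, n = 3) in wild type, and STP3, with 8.80 ± 5.05 (SD, n = 3). Among 5 measured genes of hexose phosphorylation, all of the fructokinase type, none was called after adjustment. At an unadjusted p, 2 were lower by either test and 1 was higher by limma. Over all probe sets limma had 9.34% lower and 9.85% higher at that threshold, and the analysis of variance 8.36% lower. AT2G31390 and AT5G51830, the brightest, differed by -0.10 and 0.01 on the log2 scale, with adjusted p = 0.202 and 0.969 in the limma fit. The genes of this list furthest from 0 were below the median signal, at -1.02 and 1.70 (limma, adjusted p = 0.0927 and 0.173). CWINV6, the other measured invertase, differed by -0.12 log2 units (limma, adjusted p = 0.599). The listed sucrose transporters of the SUC family, sucrose synthases and hexokinases were outside the annotation used and were not analysed here.

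**Figure D5:**
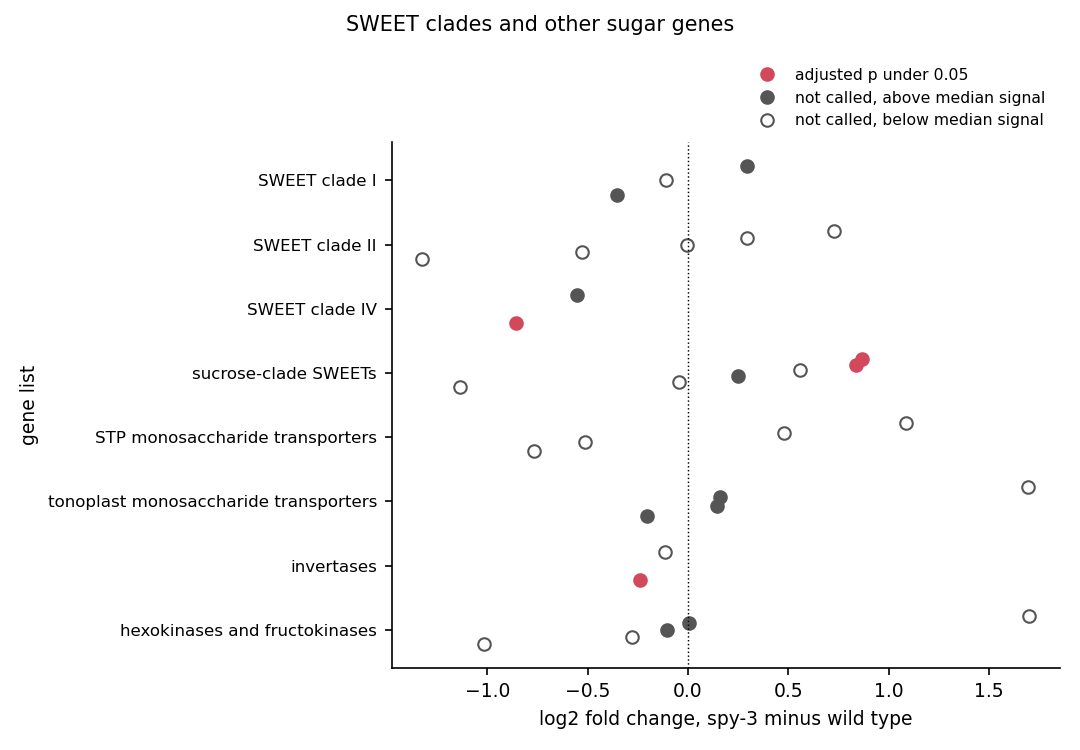
Each point is the log2 fold change of 1 gene, *spy-3* minus wild type, grouped by SWEET clade and sugar gene list. Red points passed an adjusted p of 0.05, filled grey points did not and lie above the median signal, and open points did not and lie below it. Among clades I, II and IV the red point is SWEET16, at -0.86.

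Some of the measured cell type markers differed between the genotypes on the same arrays, and others were not called. Only 2 of the 5 listed root hair markers were measured, both of them expansin genes. Both fell, with log2 fold changes of -0.44 for EXPA7 and -0.29 for EXPA18 (limma, adjusted p = 0.00274 and 0.018). Over all probe sets 3.13% were called lower. EXPA7 passed in all 15 alternatives and EXPA18 in 9. The summed signal of these markers was 2074 to 2155 in wild type and 1586 to 1703 in *spy-3*. The cortex marker CO2 had 57.7 ± 1.66 in wild type against 23.7 ± 9.49 in the mutant (SD, n = 3 each; limma, adjusted p = 0.0517), and AT1G09750, the other cortex marker, differed by -0.19 log2 units (adjusted p = 0.10). The summed cortex signal was 270.7 to 279.6 in wild type and 207.7 to 218.4 in *spy-3*. Most of it came from AT1G09750, with mean signals of 216.6 in wild type and 190.0 in *spy-3*. Among 3 measured green tissue markers RCA fell, with a log2 fold change of -0.57 (limma, adjusted p = 0.0027). The dim markers SBPASE and PRK differed by -1.43 and -0.19 log2 units, with overlap, and were not called (limma, adjusted p = 0.393 and 0.948). The summed signal was 436.5 to 478.6 in wild type and 293.5 to 326.6 in *spy-3*, most of it from RCA. The part of these differences in the decrease of SWEET16 was not tested.

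The genes next to SWEET16 and SWEET17 on their chromosomes were measured and did not pass. AT3G16700, which follows SWEET16, differed by 0.01 log2 units (limma, adjusted p = 0.982). AT3G16680, which precedes it, had mean signals of 0.567 in wild type and 2.30 in the mutant. DI21 and AT4G15930, on either side of SWEET17, differed by 0.14 and -0.04 log2 units, which did not pass (limma, adjusted p = 0.226 and 0.791). Over all 10 SWEET genes, 1 of 20 nearest measured neighbours was called, AT5G40250 beside SWEET8 (log2 fold change -0.31, adjusted p = 0.0387 from limma), against 5.77% of all probe sets in either direction.

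Among 5964 genes with a signal above the median, those whose log2 profile over the 6 arrays was nearest to that of SWEET16 were AT4G23670, AT3G13760 and AT3G51350. Their root mean square differences from SWEET16, after each gene was centred on its own mean, were 0.10, 0.10 and 0.11 log2 units. AT4G23670 had 2090 ± 216.4 in wild type against 1256 ± 62.5 in the mutant (SD, n = 3 each). AT3G13760 had 370.5 ± 24.4 (SD, n = 3) and 210.2 ± 5.45 (SD, n = 3), and AT3G51350 had 124.6 ± 26.6 (SD, n = 3) and 65.5 ± 4.88 (SD, n = 3). The likeness includes the genotype difference and is given as a description.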

How the data were processed

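Roots of 3 wild-type and 3 *spy-3* samples were measured on Affymetrix ATH1 arrays. The authors deposited 1 intensity per probe set and array, a linear MAS5 signal scaled so that the arrays have nearly the same mean. The submitters' processing notes name MAS5, with its version and settings not given in the sources used here. Detection calls were not used, and precision is limited by the number of arrays. After a floor of 1 was applied, signals were taken to log2 and fitted by genotype with limma 3.58.1 in R 4.3.3, with a mean-variance trend and Benjamini-Hochberg adjustment over 22746 probe sets. The fit was tested on simulated data. Tables were handled with Python 3.11.15 and pandas 2.3.3.

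Probe sets were named from the platform annotation through RefSeq locus tags of TAIR10.1, used for names and gene order only. That annotation lists 14016 probe sets, 13513 with 1 gene and 503 with several, and leaves the others unnamed here. Of several probe sets of a gene the brightest was used. Named genes are all SWEET members, of each list those called and the 2 brightest measured, and the 3 genes nearest in profile to a called member. The chromosome neighbours named and the split at the median signal were chosen after the values were seen. The members and lists were chosen with earlier results of these data known. Alternatives were quantile normalization, median centring, offsets of 16 and 64, leaving out the dimmest 40% of probe sets, other variance models, the analysis of variance that the methods name in its single probe set form, the replicate number as a block, and leaving out each array. No member had another probe set to try.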

Additional observations from a re-analysis of the deposited data

How the results depend on the processing

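Of all probe sets, 712 were lower and 600 higher in *spy-3*. These counts were 374 and 268 without the mean-variance trend, 371 and 287 by the analysis of variance, and 312 to 496 and 203 to 377 when 1 array was left out. They rose to 1002 and 845 after the dimmest 40% were dropped, 856 and 693 with robust variances, 817 and 682 with an offset of 16 and 803 and 671 with one of 64. With median centring they were 793 and 599. The count of lower SWEET genes was 1. It was 3 after the dimmest 40% were dropped (SWEET16, SWEET17 and SWEET2), 2 with median centring, an offset of 16 or 64 or robust variances (SWEET16 and SWEET17), 0 without the trend and by the analysis of variance, and 0 to 1 without 1 array. The count of higher SWEET genes was 0 to 1 without 1 array and 0 otherwise. SWEET16 had a log2 fold change of -0.86 without the trend and by the analysis of variance (adjusted p = 0.0555 and 0.0879), and of -0.99 to -0.75 without 1 array (adjusted p from 0.0104 to 0.0752 in limma). It lost its call in 3 of those 6 fits and kept it in the other alternatives. The count of lower sugar genes outside the SWEET family was 1, against 3 with robust variances, 2 with quantile normalization, either offset or the dimmest dropped, 0 without the trend, by the analysis of variance or with the replicate block, and 0 to 1 without 1 array, the 1 then being TST1. With median centring the count was also 1, but the gene was TST1 in place of AT1G62660.

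Signs of dim genes turned without passing the test. The log2 fold change of SWEET5 was 0.01 with an offset of 64, and that of SWEET7 was 0.04 and 0.02 with an offset of 16 and 64. Without 1 array they were -1.17 to 0.65 for SWEET5, -1.04 to 0.76 for SWEET7, -0.27 to 0.13 for SWEET1 and -0.09 to 0.79 for SWEET6. In the wild-type order 6 to 8 of the 10 genes kept their place without 1 array, and the 5 brightest kept theirs each time.

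The replicate numbers are not known to pair the arrays. Deviations of same-numbered arrays correlated at 0.019, 0.000 and 0.050, and wild type replicate 2 correlated best with *spy-3* replicate 1 (0.037). With the replicate block 391 probe sets were lower and 265 higher, and SWEET16 was still called (adjusted p = 0.0239 from limma). The cause of these changes was not tested.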
